A study of Mus musculus with 3 samples.

Results

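The interferon gamma-induced GTPases described here are 10 mouse genes of 50600 counted in each library. They comprise 5 guanylate-binding protein genes (GBP: Gbp2, Gbp3, Gbp5, Gbp6 and Gbp7) and 5 immunity-related GTPase genes (IRG: Irgm1, Irgm2, Igtp, Iigp1 and Tgtp1). They were chosen by gene symbol, and the rule used no measured value, although earlier results of these data were known. All 10 were found by matching gene identifiers to the GENCODE annotation. RNA was sequenced from T-helper 1 (Th1) primary cells of C57BL/6NJ mice, which the headers of the tables call sorted and place at 72 hours. The 3 libraries are biological replicates 1, 2 and 3 of a single group that share a donor record, and age and stage are recorded as unknown. The labels link a protocol for differentiating CD4+ T cells, and the cytokines and antibodies it uses are not given in the sources used here. No untreated, knockout or other T-cell group was analysed here, so the data give levels in Th1 cells and the spread between 3 libraries, and not an induction by interferon gamma. Nothing in the labels says that the libraries came from separate animals, so the spread and any p-value refer to these libraries and may be technical.

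Interferon gamma binds the Ifngr1 and Ifngr2 receptor pair, and the attached kinases Jak1 and Jak2 pass the signal on to the nucleus. Gamma-activated sequences (GAS) and interferon-stimulated response elements (ISRE) are the DNA elements through which target genes answer it, and Irf1 is a factor that binds the latter. GBP and IRG genes are textbook targets of this pathway, and their proteins gather on the membranes around intracellular bacteria and parasites. Among the IRG proteins, Irgm1, Irgm2 and Igtp (Irgm3) sit on host membranes and restrain the effectors Iigp1 (Irga6) and Tgtp1 (Irgb6), which attack the pathogen's vacuole.

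Promoter stretches are shown first because they display the binding-site letters by which these genes are usually recognised. RefSeq promoter windows (GRCm38.p6, the assembly of the count tables, 250 bases before to 50 after a start site) existed for 8 of the 10 genes, and Gbp6 and Iigp1 were not in that table. Each line runs 5′ to 3′ on the strand of the gene, starts 110 bases before the start site (180 for Gbp5) and ends 8 bases after the last match before that site. Capitals mark the ISRE-type letters, GAAA repeated after any 2 bases and read on either strand, and the GAS-type letters TTCNNNGAA, which read alike on both strands. Adjoining or overlapping matches run together.
Gbp2, chr3:142620553-142620621, plus strand: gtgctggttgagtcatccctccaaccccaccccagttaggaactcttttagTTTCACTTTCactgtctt
Gbp3, chr3:142559934-142560022, plus strand: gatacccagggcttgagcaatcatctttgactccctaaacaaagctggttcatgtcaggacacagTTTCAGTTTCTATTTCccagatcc
Gbp5, chr3:142496754-142496898, plus strand: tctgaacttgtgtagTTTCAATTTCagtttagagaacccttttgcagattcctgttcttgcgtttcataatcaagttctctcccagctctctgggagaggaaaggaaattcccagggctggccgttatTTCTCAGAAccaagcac
Gbp7, chr3:142530226-142530300, plus strand: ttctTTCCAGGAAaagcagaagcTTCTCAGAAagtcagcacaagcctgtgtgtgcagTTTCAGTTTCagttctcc
Irgm1, chr11:48871427-48871530, minus strand: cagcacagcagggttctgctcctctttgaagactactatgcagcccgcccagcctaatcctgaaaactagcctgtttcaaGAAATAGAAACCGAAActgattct
Irgm2, chr11:58214867-58214930, plus strand: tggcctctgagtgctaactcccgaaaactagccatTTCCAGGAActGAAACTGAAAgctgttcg
Igtp, chr11:58199446-58199539, plus strand: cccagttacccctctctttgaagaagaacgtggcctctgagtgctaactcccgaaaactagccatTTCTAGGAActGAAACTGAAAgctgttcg
Tgtp1, chr11:48992306-48992356, minus strand: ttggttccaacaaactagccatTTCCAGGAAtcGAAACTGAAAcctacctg

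The ISRE-type letters were found in the windows of 8 of 8 genes and the GAS-type letters in 5 of 8 (Gbp5, Gbp7, Irgm2, Igtp and Tgtp1). Across all 32851 RefSeq windows of the same length, 3.44% held the ISRE-type letters, 8.30% the GAS-type letters and 0.454% both. Matches to the ISRE-type letters began between 165 bases (Gbp5) and 24 bases (Irgm1) before the start site. In the 4 GBP windows the ISRE-type letters were read on the opposite strand to the gene, and in the 4 IRG windows they were read on the strand of the gene. Elsewhere in the family the letters lay on the gene's strand in Tgtp2 and 9930111J21Rik1, and on the opposite strand in Gbp2b, Gm12250 and Gm1966. Gbp3 and Irgm1 each held 2 overlapping ISRE-type matches, and neither window held the GAS-type letters. The Gbp2 stretch includes 20 bases that GENCODE places in the 5′ untranslated region of a Gbp2 transcript, and its match lies within them. A second Gbp3 window held neither pattern. For Gbp7 and Irgm2, the 50 bases after the start site were not found unbroken in a GENCODE transcript of the gene. The Irgm2 window begins at chr11:58214727, while the counted Irgm2 gene begins at chr11:58199618. A match describes letters in a window and is not evidence that a factor bound there.

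Irgm2, Igtp and Tgtp1 shared a closer arrangement, in which a GAS-type match is followed after any 2 bases by an ISRE-type match on the strand of the gene. This arrangement was noticed in the sequences and then counted, and it occurred in 5 of 32851 windows (0.0152%). The 5 windows were those of Tgtp1, Igtp, Irgm2, Tgtp2 and Gm12185, all on chromosome 11. Over 80 bases centred on the arrangement, Irgm2 and Igtp were identical at 78, Tgtp2 and Gm12185 at 73, and Igtp and Tgtp1 at 43. In the genes that carry the signal, the ISRE-type letters were found for 1 of 8 interferon gamma signalling genes with a window (Socs1), and the GAS-type letters for 3 of 8 (Ifng, Irf1 and Socs3). Among other interferon gamma targets, 2 of 10 held the ISRE-type and 2 of 10 the GAS-type letters, and among type I interferon genes 7 of 15 and 5 of 15 did.

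**Figure D1:**
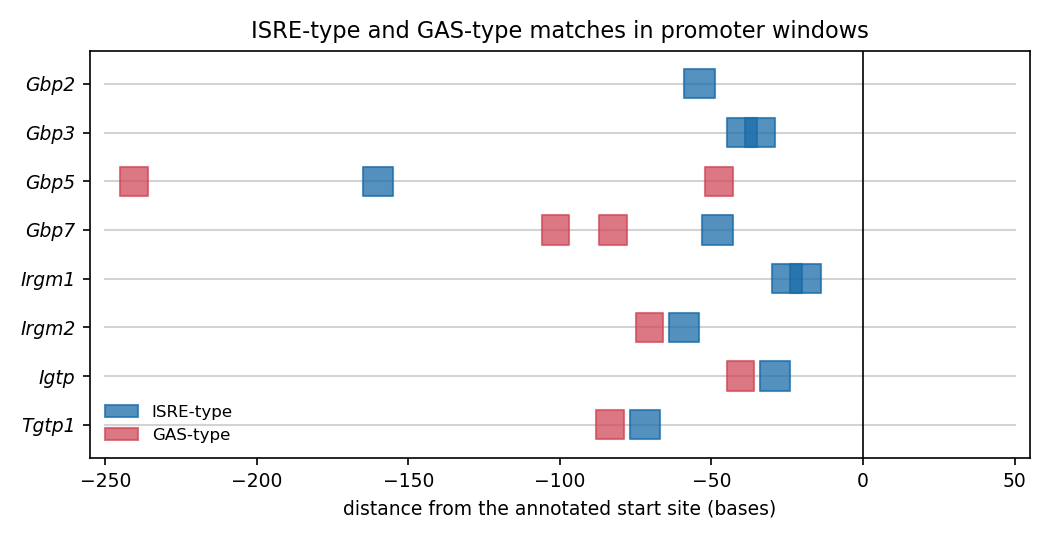
Matches to the ISRE-type letters (blue) and GAS-type letters (red) along the RefSeq promoter window of 8 GTPase genes, with distance from the annotated start site in bases on the horizontal axis. The red and blue boxes sit next to each other in Irgm2, Igtp and Tgtp1, and 1 of 3 boxes in Gbp5 lies beyond 200 bases before the start.

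Library totals were 4482916, 266790 and 3733531 counts for replicates 1, 2 and 3, which puts replicate 2 at a depth 16.8-fold under that of replicate 1. Genes whose exons overlap exons of a gene on the other strand made up 16.2% of genes. Their share of counts was 51.7% in replicate 1, 55.1% in replicate 2 and 66.5% in replicate 3. All 7 T-cell markers were at 10 TPM or more and all 6 Th1 markers at 1 TPM or more (counts per exon length, rescaled so that each library sums to 1000000, which allows comparison between genes). The lowest Th1 marker was Cxcr3, with 8, 0 and 6 counts, and Tbx21 stood at 70.5 ± 22.1 TPM (SD, n = 3). Of 5 markers of other CD4 fates, 4 were at 1 TPM or more, among them Foxp3, an overlapped gene, at 64.9 ± 2.73 TPM and Il4, with no overlap, at 9.61 ± 2.96 TPM (SD, n = 3), while Il17a had 0 counts. The tables were counted with strand setting 1, under which a fragment goes to a gene only if read 1 has the orientation of that gene. mt-Nd6, encoded on the opposite mitochondrial strand to mt-Co1 and most other mitochondrial genes, had 18316, 1673 and 13631 counts against 10721, 546 and 5027 for mt-Co1. Whether the setting matched the strand that the library kit marks is not given in the sources used here and was not tested. Member levels refer to fragments counted under that setting. Were the kit to mark the other strand, those fragments would lie antisense to the genes and the levels would not be those of the members' own transcripts.

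Counts were assigned to all 10 genes in these Th1 libraries, and Igtp and Gbp2 held most of the summed level. A mean of 1 TPM or more was reached by 9 of the 10 genes, where 47.8% of 21764 protein-coding genes reached it, and 5 reached 10 TPM, where 27.3% of protein-coding genes did. Among protein-coding genes with no opposite-strand overlap the shares were 41.5% and 22.2%. Without the shallow replicate 2 these counts were 10 and 6. The summed level was 449 TPM in replicate 1, 345 in replicate 2 and 276 in replicate 3 (357 ± 87.1 TPM, SD, n = 3). Igtp alone held 57.6% ± 0.900 of that sum and Igtp with Gbp2 75.8% ± 4.20 (SD, n = 3). In bulk RNA, fewer cells of a type and less RNA per cell cannot be told apart.

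Among the regulators, Igtp, an endoplasmic reticulum GTPase at chr11:58199556-58207591 on the plus strand, was the most abundant member. It had 1078, 52 and 666 counts in replicates 1, 2 and 3, or 255, 199 and 162 TPM (205 ± 46.9 TPM, SD, n = 3). Its mean exceeded that of 98.3% of protein-coding genes, with 370 above it, and it was the highest of the 10 members in each library.

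Irgm1 (chr11:48861968-48871683, minus strand), a lysosome- and Golgi-associated regulator known for control of mycobacteria, had 217, 12 and 137 counts. Its level was 17.9, 16.0 and 11.6 TPM (15.1 ± 3.22, SD, n = 3), the smallest spread relative to the mean of the 10 genes on this scale. Irgm2 (chr11:58199618-58222782, plus strand), a regulator of the Golgi apparatus, had 108, 9 and 65 counts and 14.0, 18.9 and 8.65 TPM (13.8 ± 5.12, SD, n = 3). Irgm1 was above Irgm2 in replicates 1 and 3 and below it in replicate 2, where 9 counts gave a 95% Poisson interval of 8.63 to 35.8 TPM for Irgm2. All such intervals cover counting error only.

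Both effectors were below the 3 regulators in TPM in each library, but the order against Irgm1 and Irgm2 was only partly resolved. The 95% Poisson interval of Iigp1 included the Irgm2 level in replicate 1 (9.58 to 15.1 TPM) and replicate 3 (6.38 to 11.1 TPM). That of Tgtp1 in replicate 2 (5.32 to 31.5 TPM) included the levels of Irgm1 and Irgm2. In replicates 1 and 3 the Tgtp1 intervals lay below those of all 3 regulators, and both effectors lay below Igtp throughout. Iigp1 (chr18:60376029-60392627, plus strand), which loads onto parasite vacuoles, had 79, 1 and 54 counts, or 12.1, 2.48 and 8.50 TPM (7.69 ± 4.86, SD, n = 3). Tgtp1 (chr11:48985327-48994172, minus strand), the other effector, had 46, 6 and 28 counts, or 6.86, 14.5 and 4.29 TPM (8.55 ± 5.30, SD, n = 3). Replicate 2 was thus the lowest library for Iigp1 and the highest for Tgtp1, at 1 and 6 counts where the library sizes gave expected counts of 4.60 and 2.74. Tgtp1 shares 81.2% of the 50-base words of its transcripts with other genes, 79.4% with Tgtp2, and their coding sequences are 99.7% identical. How the counting divided fragments between these copies was not tested, and Tgtp2 itself had 24, 0 and 20 counts.

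On the GBP side, Gbp2 (chr3:142620602-142638008, plus strand), a prenylated GTPase that coats Toxoplasma vacuoles, was the most abundant. It had 520, 15 and 272 counts, or 98.8, 46.1 and 53.1 TPM (66.0 ± 28.6, SD, n = 3), above 93.7% of protein-coding genes. Gbp2 is the only one of the 10 genes whose exons overlap a gene on the other strand, the microRNA gene Mir6381 (chr3:142623860-142623946, minus strand), which shares 24 exon bases with it. Mir6381 has an exon length of 87 bases against 2516 for Gbp2, and yet had 543, 22 and 706 counts, more than Gbp2 in each of the 3 libraries. Strand setting 1 assigns a fragment by its orientation, so the fragments counted for Mir6381 are not among those counted for Gbp2. Whether that setting matched the kit, and so which strand the Gbp2 counts and its rank refer to, was not tested.

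Gbp5 (chr3:142493978-142522344, plus strand), another prenylated GBP, known for promoting inflammasome assembly, had 417, 25 and 246 counts. Its level was 30.0, 29.2 and 18.2 TPM (25.8 ± 6.60, SD, n = 3), with replicates 1 and 2 close together and replicate 3 lower. Gbp3 (chr3:142560026-142573209, plus strand), a neighbour in the same chromosome 3 cluster, had 61, 4 and 30 counts, or 8.93, 9.48 and 4.51 TPM (7.64 ± 2.73, SD, n = 3). Gbp7 (chr3:142530342-142550149, plus strand), linked to assembly of the phagocyte oxidase, had 45, 7 and 55 counts, or 3.83, 9.65 and 4.81 TPM (6.10 ± 3.11, SD, n = 3). Relative to their means, Gbp7 and Tgtp1 stood furthest above the other libraries in replicate 2.

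Gbp6 (chr5:105270702-105293698, minus strand), the only GBP member of the chromosome 5 cluster, was the lowest gene in each library. It had 25, 0 and 12 counts, or 2.01, 0 and 0.990 TPM (0.999 ± 1.00, SD, n = 3). The count of 0 in replicate 2 has a 95% Poisson interval that reaches 4.80 TPM, and 3 counts there equal 3.90 TPM, so that library could not have shown the level of the others. Of the 50-base words in Gbp6 transcripts, 65.0% also lie in Gm43302, an overlapping gene model on the same strand with 0 counts in each library, and 45.9% in Gbp10. Gbp6 and Gbp10 coding sequences are 98.4% identical, and the division of fragments among these genes was not tested.

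Other members had less sequence in common with other genes. Shared 50-base words came to 12.7% for Gbp7, 11.8% for Igtp and 7.83% for Irgm2, and lay between 0.379% (Irgm1) and 3.75% (Gbp3) for the other 5. Igtp and Irgm2 overlap on the same strand over 162 exon bases. The closest coding sequences were Gm4951 for Iigp1 (86.1% identical), Gbp2b for Gbp2 (82.5%), and Gbp7 for Gbp3 (76.5%). Among the regulators, Irgm2 and Igtp were 67.8% and Irgm1 and Igtp 65.4% identical, and Gbp5 was 58.6% identical to its closest, Gbp2.

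**Figure D2:**
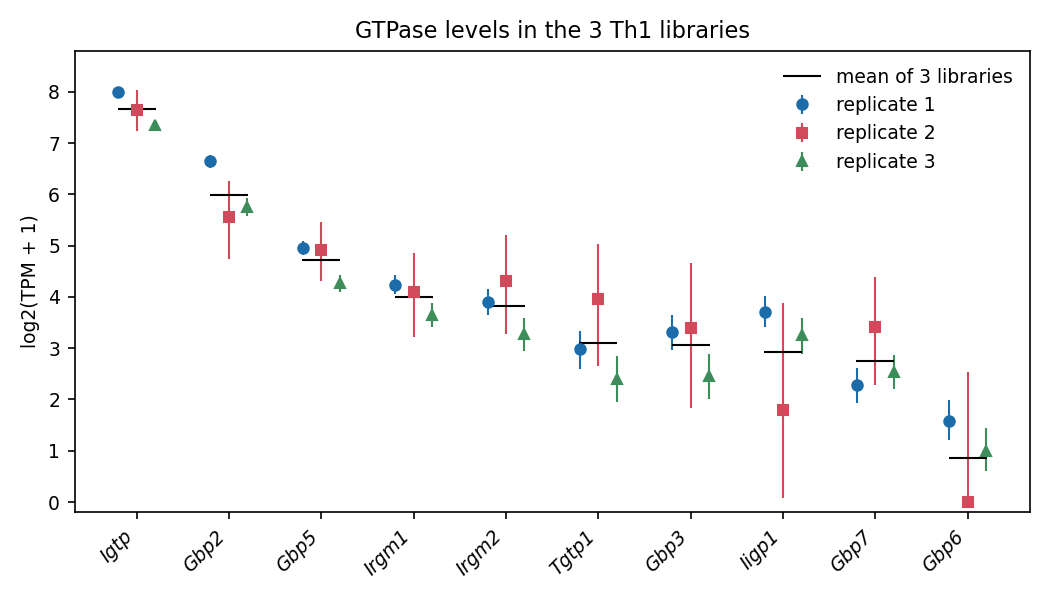
Level of each of the 10 GTPase genes as log2(TPM + 1) on the vertical axis, with 1 symbol per replicate, 95% Poisson intervals (counting error only) as vertical lines and the mean of 3 libraries as a horizontal bar. Igtp is highest in each library, and the intervals of replicate 2 are the widest, with Gbp6 at 0.

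On the mean log2(TPM + 1) scale the order was Igtp, Gbp2, Gbp5, Irgm1, Irgm2, Tgtp1, Gbp3, Iigp1, Gbp7 and Gbp6. Neighbours were called different beyond their spread when the 3 libraries gave the same order and the mean difference exceeded 1 SD, which held for 5 of 9 neighbours. Igtp exceeded Gbp2 by 1.68 ± 0.37, Gbp2 exceeded Gbp5 by 1.27 ± 0.55 and Gbp5 exceeded Irgm1 by 0.72 ± 0.11 (difference in log2(TPM + 1), SD, n = 3). Irgm2 exceeded Tgtp1 by 0.72 ± 0.31 and Gbp7 exceeded Gbp6 by 1.88 ± 1.39 on the same scale. Irgm1 and Irgm2 could not be separated, nor could the neighbours among Tgtp1, Gbp3, Iigp1 and Gbp7. Of all 45 pairs, 38 had the same order in the 3 libraries.

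The summed level of the 5 IRG genes was above that of the 5 GBP genes in each library, through Igtp alone. Summed IRG levels were 306, 251 and 195 TPM (250 ± 55.5, SD, n = 3), and summed GBP levels were 144, 94.4 and 81.6 TPM (107 ± 32.8, SD, n = 3). The log2 ratio of IRG to GBP was 1.09, 1.41 and 1.26 (1.25 ± 0.16, SD, n = 3), positive in 3 of 3 libraries. A sign-flip permutation test with 3 libraries cannot go below p = 0.25, so none was made. Without Igtp the log2 ratio turned negative in each library, at -1.50, -0.87 and -1.31 (-1.22 ± 0.32, SD, n = 3). Without Gbp2 it was 2.64 ± 0.23, and without both genes 0.17 ± 0.06 (SD, n = 3).

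The wider GTPase family was mostly low. Of 6 other GBP genes, 3 were at 1 TPM or more and 0 at 10: Gbp4 at 2.88 ± 2.84 TPM, Gbp8 at 1.92 ± 1.72 TPM (SD, n = 3) and Gbp9, with 26, 0 and 22 counts. The 6 genes had no count in replicate 2. Gbp2b, the closest relative of Gbp2, had 0 counts in each library. Its 95% Poisson intervals reached 0.625, 10.1 and 0.642 TPM in replicates 1, 2 and 3. Of 13 other IRG and very large inducible GTPase genes, 5 were at 1 TPM or more and 2 at 10. These were Gm12250, with 39.8, 36.4 and 27.0 TPM (34.4 ± 6.64, SD, n = 3), a level between those of Gbp2 and Gbp5, and Irgq, with 5.11, 28.0 and 2.99 TPM. Irgq passed 10 TPM through replicate 2 alone, where it had 22 counts.

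**Figure D3:**
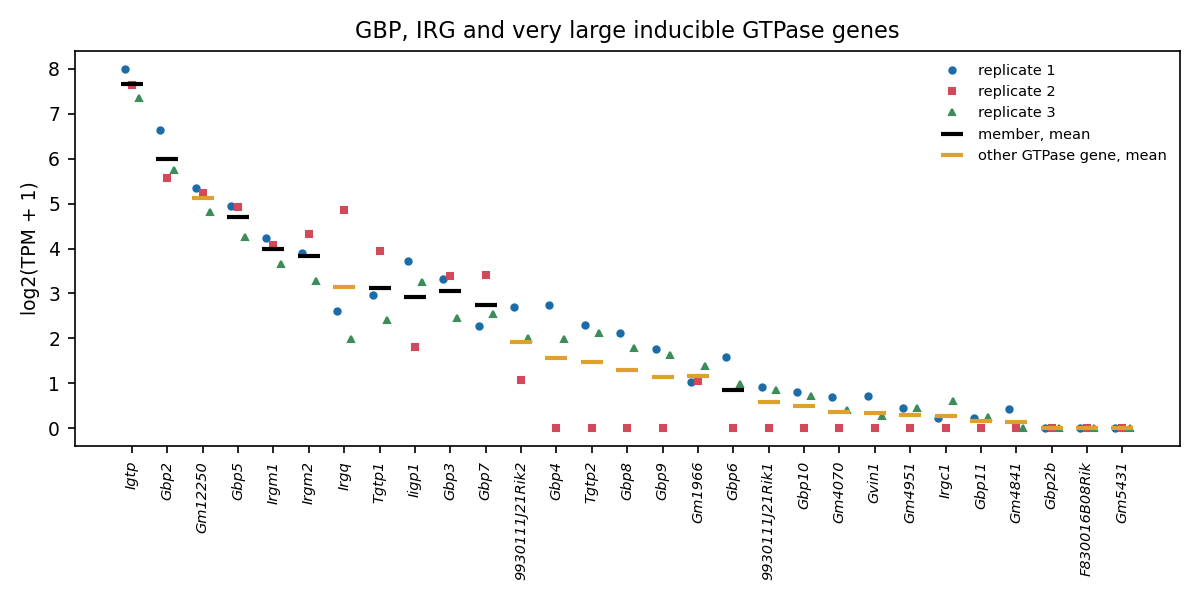
Levels of 29 GBP, IRG and very large inducible GTPase genes as log2(TPM + 1) on the vertical axis, with 1 symbol per replicate and black (the 10 members) or orange (19 other family genes) bars at the mean of 3 libraries. Gm12250 lies between Gbp2 and Gbp5, and Gbp2b is at 0.

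Levels were then compared between libraries with a chi-square test on the raw counts that allows for counting error only, run over 11595 genes with a mean count of at least 10. A call needed an adjusted p (Benjamini-Hochberg over all genes tested) under 0.05 and a highest library at least 2 times the lowest. Of the 10 members, all tested, 2 were called, Gbp2 and Gbp7, where 32.2% of all genes tested were called. That share is above 2 of 10, so the count gives no sign that the family varied more than other genes. Beside it, 24.7% of genes with no opposite-strand overlap were called.

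Gbp2 was highest in replicate 1 and lowest in replicate 2, with a scaled ratio of 2.10 and an adjusted chi-square p of 6.8e-05 (edgeR's TMM scaling). Of all genes tested, 7.59% were called with replicate 1 highest, whichever library was lowest. Its 15 counts in replicate 2 stood against 27.7 expected from the library sizes. Without replicate 1 the ratio was 1.56 (adjusted p = 0.196) and without replicate 2 it was 1.24 (adjusted p = 0.0133), so the call rested on both libraries. On genes with no opposite-strand overlap Gbp2 leaves the test by construction.

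Gbp7 was highest in replicate 2 and lowest in replicate 1, with a ratio of 2.57 and an adjusted chi-square p of 0.011. Of all genes tested, 10.5% were called with replicate 2 highest, whichever library was lowest. The Gbp7 call rested on 7 counts against 3.67 expected, few enough that the chi-square p is approximate. The call was lost when any of the 3 libraries was left out, with ratios of 1.48 without replicate 1 (adjusted p = 0.463), 1.88 without replicate 2 (adjusted p = 0.0050) and 2.57 without replicate 3 (adjusted p = 0.0741). Of the members not called, Tgtp1 had a ratio of 2.49 (adjusted p = 0.163), and Igtp had an adjusted p of 0.0298 with a ratio of only 1.25.

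Between the deep libraries most members shifted as other genes with no opposite-strand overlap did. In replicate 3, 9 of the 10 genes had a lower TPM than in replicate 1, and the median log2 ratio of replicate 3 to replicate 1 over the 10 was -0.69. The same was true of 76.0% of all genes tested, with a median of -0.65, and of 93.0% of genes with no opposite-strand overlap, with a median of -0.77. Genes with such an overlap had a median of -0.03. The members' share and median were thus close to those of other genes without an overlap, and are not a result about the family.

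Single values are given with 95% intervals for counting error only. The log2 ratio of TPM in replicate 3 to replicate 1 was -0.66 for Igtp (-0.80 to -0.52) and -0.63 for Irgm1 (-0.94 to -0.31). It was -0.69 for Irgm2 (-1.16 to -0.24) and -0.72 for Gbp5 (-0.96 to -0.49). Gbp2 lay lower, at -0.90, with an interval of -1.11 to -0.68 that includes the median of genes with no overlap. Gbp7 was the exception at 0.33, and its interval of -0.27 to 0.93 includes 0 but not that median. Iigp1 was at -0.51, Tgtp1 at -0.68, Gbp3 at -0.99 and Gbp6 at -1.02, with wider intervals.

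**Figure D4:**
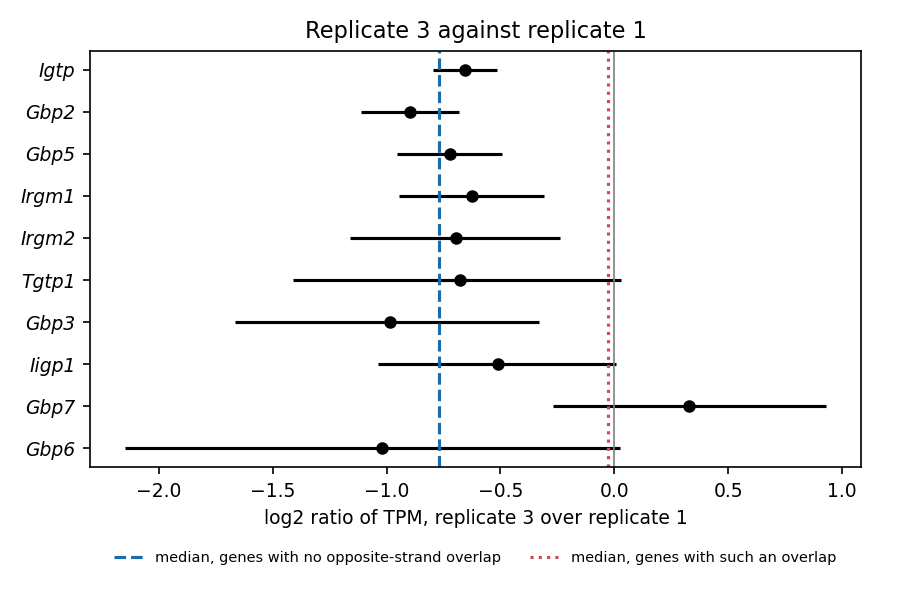
Log2 ratio of TPM in replicate 3 to replicate 1 on the horizontal axis for the 10 GTPase genes, with 95% intervals for counting error, and vertical lines at the medians of genes without (-0.77, dashed) and with (-0.03, dotted) an opposite-strand overlap. Of the 10 intervals, that of Gbp7 alone lies to the right of the dashed line.

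Scaling over the genes with no opposite-strand overlap alone brought the libraries closer together for the members. On this scale, a TPM computed after leaving overlapped genes out, Igtp stood at 650, 538 and 648 in replicates 1, 2 and 3, with a coefficient of variation (CV) of 10.5% against 22.9% on the TPM of all genes. Gbp5 stood at 76.6, 78.8 and 72.9 (CV 3.90% against 25.6%), and Irgm1 at 45.5, 43.2 and 46.4 (CV 3.65% against 21.3%). The ratio of replicate 3 to replicate 1 was 0.997 for Igtp, 0.952 for Gbp5 and 1.02 for Irgm1 on this scale, against 0.634, 0.606 and 0.648 in TPM over all genes. Over the tested genes with no overlap the median log2 ratio on this scale was -0.12.

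The CV was lower on this scale for 10 of 10 members, with a median of 27.9% against 40.2%, and it was lower for 87.3% of the 6933 tested genes with no overlap, with a median of 35.3% against 44.2%. Gbp2, added to that scale although it has an overlap, stood at 252, 125 and 213. In Iigp1 (30.9, 6.70 and 34.0) and Tgtp1 (17.5, 39.2 and 17.2), replicate 2 still stood apart from the others, at 1 and 6 counts there. For Gbp7 (9.77, 26.1 and 19.3) replicate 3 lay nearer to replicate 2 than to replicate 1. Levels on this scale were 2.88 to 3.10 times the TPM of all genes, so absolute TPM values hold only beside a stated set of genes.

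**Figure D5:**
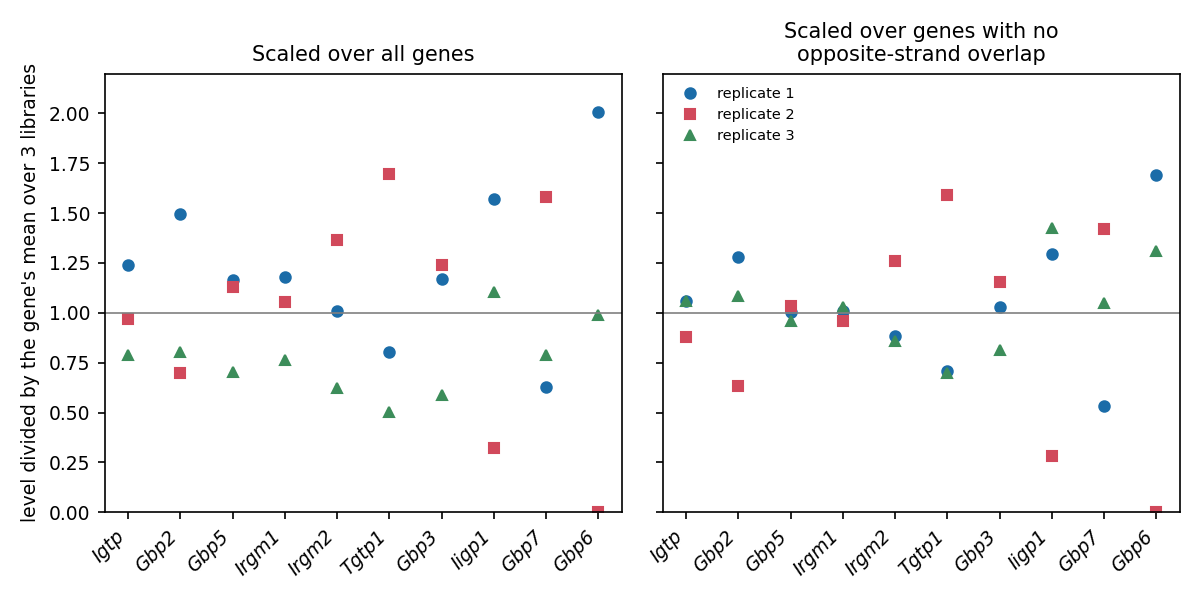
Level of each GTPase gene divided by its mean over 3 libraries (vertical axis, 1 symbol per replicate), scaled over all genes (left) or over genes with no opposite-strand overlap (right). On the right the 3 symbols of Gbp5 and Irgm1 nearly coincide, and replicates 1 and 3 of Igtp do.

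The genes that carry and answer the interferon gamma signal had counts beside the GTPases. Of 10 signalling genes, 10 were at 1 TPM or more and 9 at 10. The ligand gene Ifng stood at 840, 634 and 339 TPM (604 ± 252, SD, n = 3), above Igtp in each library. The receptor genes were lower, with Ifngr1 at 16.9 ± 6.51 and Ifngr2 at 3.16 ± 1.39 TPM (SD, n = 3). The kinase gene Jak2 stood at 78.4 ± 28.5 TPM and the inhibitor genes Socs1 and Socs3 at 37.4 ± 18.7 and 62.7 ± 17.7 TPM (SD, n = 3).

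Ifng was highest in replicate 1, both in TPM and on the TMM scale. Of the 10 GTPase genes, 6 were highest in replicate 1 on the TMM scale and 4 in replicate 2 (Gbp3, Gbp7, Irgm2 and Tgtp1). The share of all genes highest in each library was not counted, so these numbers are not a result about the family. Irf1, an overlapped gene, stood at 44.6, 29.2 and 25.4 TPM. Among 15 other interferon gamma targets, 11 were at 1 TPM or more and 10 at 10, with 1 of 11 tested called (Tap2, which has an opposite-strand overlap), under the 32.2% of all genes. B2m, a major histocompatibility light chain gene, stood at 1192 ± 413 TPM (SD, n = 3). Irf8, a transcription factor gene, stood at 140 ± 36.8 TPM (SD, n = 3). The chemokine gene Cxcl9 and the enzyme gene Ido1 had 0 counts in each library. Nos2, the inducible nitric oxide synthase gene, had 76, 3 and 57 counts (6.61 ± 1.51 TPM, SD, n = 3). These 3 genes are typical of interferon-treated myeloid cells.

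Levels of the type I interferon signalling and target genes spanned a wide range. Of 18, 14 were at 1 TPM or more and 8 at 10, and 4 of 12 tested were called between libraries (Ifnar2, Stat2, Ifit2 and Mx2), near the 32.2% of all genes tested. Bst2 stood at 232 ± 65.4 and Isg15 at 46.7 ± 7.26 TPM (SD, n = 3), while Rsad2 had 0 counts in each library and Ifit3 had 3, 0 and 0.

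Genes for the machinery that places these GTPases on membranes also had counts. Prenyl groups are attached at a C-terminal CaaX sequence, as in Gbp2 and Gbp5, and all 5 genes of that processing were at 1 TPM or more, with 3 at 10 and 1 of 5 called (Fnta, 39.5, 15.4 and 20.2 TPM), where 32.2% of all genes were called. The autophagy conjugation system guides IRG and GBP proteins to pathogen vacuoles, and its 10 genes were all at 1 TPM or more, with 6 at 10. Of 9 tested, 3 were called (Atg7, Atg16l1 and Gabarapl1), again near the 32.2% of all genes. Atg7 stood at 33.6, 70.0 and 43.5 TPM and Atg5 at 17.7, 13.2 and 11.5 TPM.

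Macrophages and dendritic cells also express these GTPases, so the markers of other cells are given beside them. Of 8 macrophage and monocyte markers, 2 were at 1 TPM or more, and Lyz2, Adgre1 and Itgam had 0 counts in each library. The summed level of that list was 97.2, 131 and 144 TPM in replicates 1, 2 and 3, mostly Csf1r, which has an opposite-strand overlap and stood at 85.4, 112 and 135 TPM. Cd68, which has no overlap, had 29, 3 and 22 counts (12.7 ± 5.15 TPM, SD, n = 3) and was lowest in TPM in replicate 3. Of 7 dendritic cell markers, 2 were at 1 TPM or more, with H2-Ab1 at 17.2 ± 3.89 TPM (SD, n = 3), and Flt3, Siglech, Clec9a and H2-Aa had 0 counts.

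The summed dendritic cell list was 22.4, 16.0 and 16.5 TPM. Of 6 B-cell markers, Ighm and Cd79a were at 1 TPM or more and Ms4a1 and Pax5 had 0 counts, and the summed list was 54.2, 14.7 and 26.9 TPM. Of 4 natural killer markers, Eomes alone had counts, with a sum of 9.90, 3.73 and 6.97 TPM. The part of other cells in the GTPase levels was not tested.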

How the data were processed

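RNA of 3 Th1 libraries of 1 group was analysed. The deposited values are raw counts of fragments per gene, made by the authors with featureCounts 1.4.6-p4 on mm10 with GENCODE mouse release 13 and strand setting 1, per the file headers, and each table also gives the exon length of each gene. Total RNA is the assay named in the labels, although the protocol they link carries polyadenylated RNA in its name. No aligner is given in the sources used here, and 0 value columns were left unused.

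Names came from GENCODE mouse release 21 by gene identifier, and of 50600 genes 50376 matched and 224 did not. TPM was computed from the deposited counts and lengths. Levels are means with the sample SD. A gene was marked as overlapped when its exons shared any base with exons of an opposite-strand gene. Each gene's counts were tested against expectation from TMM-scaled library sizes (edgeR 4.0.16, R 4.3.3) with a chi-square test. Genes needed a mean count of 10 or more, and a call needed an adjusted p under 0.05 (Benjamini-Hochberg over all genes tested) with a 2-fold or larger ratio, the lowest library entering with no fewer than 3 counts. It compares libraries and holds counting error only. Other computations used Python 3.11.15, scipy 1.17.1 and biopython 1.88, and DESeq2 1.42.0 gave alternative size factors. Intervals are exact Poisson at 95%, for counting error only. On simulated Poisson counts with changes in replicate 3 alone, the test recovered 100 of 100 genes changed 4-fold and 65 of 100 changed 2-fold. It made 8 calls among 11392 unchanged genes. The simulation held counting error only and no change in the shallow replicate 2. It therefore gives no error rate for calls resting on replicate 2, or for spread beyond counting error.

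Promoter windows are RefSeq's for GRCm38.p6. Coordinates of genes are those of the count tables, counted from 1. Shared words of 50 bases were counted on either strand over 141767 GENCODE transcripts, and coding sequences were compared by global alignment. Protein sequences were not used here. The text may name the 10 genes, genes that overlap their exons, and every gene of the pathway, family and marker lists. mt-Nd6, mt-Co1 and the joined GAS-type and ISRE-type arrangement were chosen after their values or sequences were seen. The members and lists were chosen with earlier results of these data known.

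Alternatives changed the scaling (TMM, DESeq2 size factors, library totals, genes with no opposite-strand overlap), the summary over libraries, the filter on low counts, the ratio and the pseudocount of 1, and left out each replicate. Keeping Gbp2 on the no-overlap scale, and the IRG to GBP ratio without Igtp and without Igtp and Gbp2, were added after the data were seen.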

Additional observations from a re-analysis of the deposited data

How the results depend on the processing

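No paired analysis was possible because the 3 libraries form a single group. The log2 ratio of IRG to GBP changed direction without Igtp (-1.22) and was 0.17 without Igtp and Gbp2, and no other result changed direction under the alternatives run. Scaled over genes with no opposite-strand overlap, which leaves out Gbp2, 8 of 9 members reached 10 TPM and the summed level was 866 TPM. Levels there were 2.88 to 3.10 times the TPM of all genes, so 10 TPM was a lower bar than on the main scale. The share of protein-coding genes reaching it was not counted. The log2 ratio of IRG to GBP was 2.64 under this scaling. It was the same on the TPM of all genes when only the 9 members with no overlap were counted. Under that scaling 1201 of 6933 genes with no overlap (17.32%) were called between libraries, with 1 of 9 members (Gbp7). With a mean count of at least 100, 1750 of 5137 genes (34.07%) and 1 of 4 members (Gbp2) were called. Without replicate 1, 1941 of 10804 genes (17.97%) and 0 of 9 members were called. Without replicate 2, 1824 of 12257 genes (14.88%) and 0 of 10 members were called. Without replicate 3, 1332 of 11272 genes (11.82%) and 1 of 10 members (Gbp2) were called. Neighbours with the same order numbered 5 to 8 of 9, with 8 without replicate 2. Of 50 alternative mean levels of single members, the 10 on the no-overlap scale moved by more than 1 SD. The DESeq2 size factors, library totals, a ratio of 1.5 and no filter each kept the calls of Gbp2 and Gbp7. Replicate 2 limits the low genes: 3 counts there equal 3.50 TPM for Gbp5 and 11.5 TPM for Igtp.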
